A study of Mus musculus with 26 samples.

Results

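The genes described here encode the matrix metalloproteinases (Mmp), the ADAMTS proteases, the ADAMTS-like proteins (Adamtsl), which lack the protease domain, and the tissue inhibitors of metalloproteinases (Timp) in the mouse left ventricle. They were taken by name alone: Mmp, Adamts or Adamtsl followed by a number, with the letters a and b of the Mmp1 pair, and Timp1 to Timp4. This gave 51 of the 56941 genes in the count table, of which 23 were Mmp, 19 Adamts, 5 Adamtsl and 4 Timp genes. The study asked how the cardiac transcriptome of each sex depends on B55α, a regulatory subunit of the serine and threonine phosphatase PP2A that is encoded by Ppp2r2a. Poly-A RNA was sequenced from the left ventricles of 26 mice in 4 groups. The groups were 6 male floxed controls (Ctrl males), 7 male knockouts (cKO males), 6 female floxed controls (Ctrl females) and 7 female knockouts (cKO females).

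The knockouts had the genotype aMHC-CreTg/0-Ppp2r2aL/L: floxed Ppp2r2a alleles and a Cre transgene under the cardiac α-myosin heavy chain promoter, which is active in cardiomyocytes. The controls had the genotype aMHC-Cre0/0-Ppp2r2aL/L, the same floxed alleles with no Cre, so the presence of Cre and the loss of Ppp2r2a cannot be told apart. The strain label is C57BL/6N, and the series text calls the background mixed, with floxed mice from C57BL6/N and Cre mice from FVB. All mice, controls included, were 12 to 16 weeks old and had carried a saline minipump for 2 weeks. The labels do not say which mice were littermates and give no batch. The p-values rest on the spread between mice within groups and treat the mice as independent. They do not account for litters or batches.

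MMPs and ADAMTS enzymes are zinc proteases that cut collagens, proteoglycans and other proteins of the extracellular matrix, and most are made as inactive precursors. TIMPs bind the active site of these enzymes and block it, and in the heart the balance of both is known for its part in fibrosis and ventricular remodelling. ADAMTS-like proteins bind matrix fibres such as the fibrillin microfibrils without cutting them.

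Library totals ran from 14403102 to 30867399 counts. Levels are given as CPM, the counts of a gene per 1000000 counts of its library, on totals scaled by the trimmed mean of M-values, and members are compared with each other per kilobase (kb) of the longest annotated transcript. Of the 51 genes, 37 had enough counts to be tested, beside 15357 genes in all. Ppp2r2a, the targeted gene, was at 37.4 ± 10.2 CPM (SD, n = 6) in Ctrl males and 14.1 ± 1.81 (n = 7) in cKO males, and at 40.4 ± 3.60 (n = 6) in Ctrl females and 13.4 ± 2.07 (n = 7) in cKO females. The atrial markers Myl7, Sln and Myl4 summed to at most 2.31 CPM in any mouse, and 6 cardiomyocyte markers to at least 47951 CPM. In whole tissue, fewer cells of a type and less RNA per cell cannot be told apart.

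The members split first by genome position and promoter. Of the 23 Mmp genes, 10 lie on chromosome 9, and 9 of these (Mmp13, Mmp12, Mmp1b, Mmp3, Mmp10, Mmp8, Mmp27, Mmp20 and Mmp7) follow each other in GENCODE M21 with no other protein-coding gene between them. RefSeq promoter windows, the 250 bases before an annotated transcript start in GRCm38.p6, were at hand for 36 of the 51 genes, in 39 windows. Of these 36, 23 had enough counts to be tested, against 37 of all 51, so most genes without a window were tested ones. Among those left out are Mmp2, Mmp9, Adamts5, Adamts7 and Adamts10, and the promoter comparison does not cover them. The letters of 3 motifs were searched on both strands: the AP-1 site TGANTCA, the TATA box TATAAA and the GC box GGGCGG. The 7 windows below are shown because they carry the contrast between the chromosome 9 Mmp genes, which had few or no counts, and the members that the ventricle transcribes or that differed between groups. They are written 5′ to 3′ on the strand of the gene, and capitals mark the searched motifs. The 3 chromosome 9 genes come first, from chr9:7272264-7272513 (Mmp13), chr9:7445572-7445821 (Mmp3) and chr9:7502092-7502341 (Mmp10), all on the plus strand:
Mmp13: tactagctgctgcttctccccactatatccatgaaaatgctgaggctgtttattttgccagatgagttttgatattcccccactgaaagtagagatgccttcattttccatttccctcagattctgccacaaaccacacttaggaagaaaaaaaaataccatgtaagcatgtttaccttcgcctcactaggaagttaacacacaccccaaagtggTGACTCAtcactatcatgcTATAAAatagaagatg
Mmp3: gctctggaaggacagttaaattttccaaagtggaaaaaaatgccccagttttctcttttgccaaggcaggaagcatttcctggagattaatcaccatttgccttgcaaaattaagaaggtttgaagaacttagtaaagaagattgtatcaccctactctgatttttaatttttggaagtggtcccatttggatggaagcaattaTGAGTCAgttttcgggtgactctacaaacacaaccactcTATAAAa
Mmp10: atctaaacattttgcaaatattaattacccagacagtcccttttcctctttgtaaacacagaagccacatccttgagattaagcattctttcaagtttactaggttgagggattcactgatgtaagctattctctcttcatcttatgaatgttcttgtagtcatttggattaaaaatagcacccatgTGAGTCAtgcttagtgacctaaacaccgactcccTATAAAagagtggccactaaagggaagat
The other 4 are from chr10:86300162-86300411 (Timp3), chr8:95352046-95352295 (Mmp15), chr2:27079129-27079378 (Adamtsl2) and chr7:82335444-82335693 (Adamtsl3), also on the plus strand:
Timp3: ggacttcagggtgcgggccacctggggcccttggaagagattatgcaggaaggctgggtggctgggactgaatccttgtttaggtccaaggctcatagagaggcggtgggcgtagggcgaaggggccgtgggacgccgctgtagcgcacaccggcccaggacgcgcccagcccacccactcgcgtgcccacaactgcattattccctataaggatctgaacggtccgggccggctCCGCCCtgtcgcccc
Mmp15: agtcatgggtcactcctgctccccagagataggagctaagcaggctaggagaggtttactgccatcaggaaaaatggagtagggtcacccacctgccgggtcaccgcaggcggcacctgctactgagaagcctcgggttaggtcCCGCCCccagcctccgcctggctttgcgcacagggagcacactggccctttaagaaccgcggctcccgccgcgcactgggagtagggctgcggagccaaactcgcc
Adamtsl2: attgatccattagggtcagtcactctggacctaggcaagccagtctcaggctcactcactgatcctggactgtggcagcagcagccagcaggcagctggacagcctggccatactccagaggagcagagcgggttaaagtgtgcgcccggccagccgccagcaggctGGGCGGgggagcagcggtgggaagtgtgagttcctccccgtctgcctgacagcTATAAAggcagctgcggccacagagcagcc
Adamtsl3: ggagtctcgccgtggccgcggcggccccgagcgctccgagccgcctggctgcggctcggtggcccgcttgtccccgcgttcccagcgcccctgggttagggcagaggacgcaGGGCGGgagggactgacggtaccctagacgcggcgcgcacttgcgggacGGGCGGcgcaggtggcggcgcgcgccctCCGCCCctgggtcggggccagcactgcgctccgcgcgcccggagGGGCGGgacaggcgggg

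In the Mmp13 window the AP-1 letters begin 35 bases before the start and the TATA box 16 bases before it. In Mmp10 they begin at 63 and 29 bases. The AP-1 letters were found in 8 of the 10 chromosome 9 Mmp genes and in 0 of the other 26 genes with a window, and the GC box in 0 of those 10 and in 20 of those 26. Among all 32851 RefSeq windows of the same length, 6.75% held the AP-1 letters, 12.4% the TATA box, 32.7% the GC box and 1.22% both AP-1 and TATA. Among the members' 39 windows, 17.9% held both AP-1 and TATA. The chromosome 9 Mmp windows had a median GC content of 40.2% (37.2 to 53.2), against 64.4% (53.6 to 80.0) in the members' other windows and 52.4% over all windows. Adamtsl2 was the member of the 7 shown that held a TATA box, 30 bases before the start, together with a GC box. A match describes letters, not factor binding, and neighbouring genes of 1 cluster are not independent examples.

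Transcript levels followed the same split in part. The 7 genes with AP-1 and TATA in 1 window (Mmp10, Mmp13, Mmp1a, Mmp1b, Mmp20, Mmp3 and Mmp7) reached at most 44 counts in any library, and 1 of them, the collagenase gene Mmp13, was abundant enough to be tested. Mmp1a, Mmp1b, Mmp7, Mmp10 and Mmp20 had no count in any of the 26 libraries, where 3 counts correspond to between 0.0928 and 0.210 CPM. The 20 genes with a GC box had a median level of 3.12 CPM per kb (0.00239 to 99.3), and 17 of them were tested. Of the chromosome 9 Mmp genes 2 of 10 were tested, and of the Mmp genes elsewhere 10 of 13. Mmp8 and Mmp27, also on chromosome 9, held none of the 3 motifs and reached at most 2 and 10 counts. The classes overlapped in level. The GC box genes Adamts18 (0.00239 CPM per kb), Mmp24 (0.0128), Mmp25 (0.0149) and Adamts20 (0.0657) lay below Mmp3 (0.149) and Mmp13 (0.243). Of the genes with no GC box outside chromosome 9, Adamts12, Adamts17, Mmp23 and Timp4 were tested and Adamts13 and Mmp21 were not. The plot of promoter GC content against level shows the split and the overlap.

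**Figure D1:**
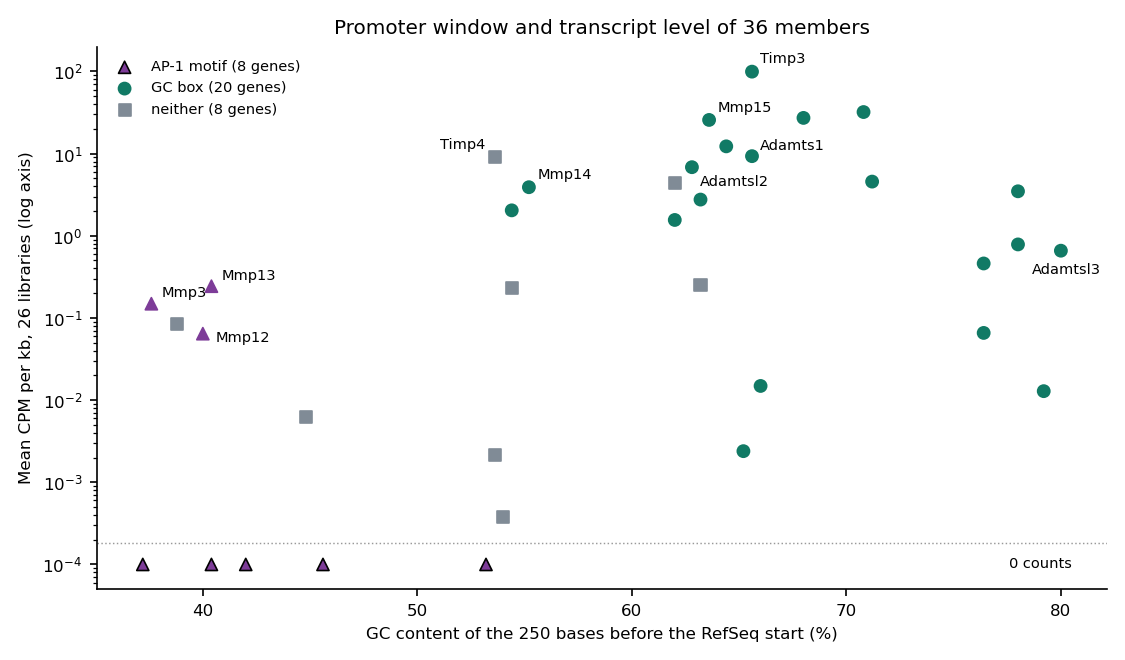
GC content of the 250 bases before the RefSeq start (x, percent) against mean level over 26 libraries (y, CPM per kb, log axis) for 36 genes. Triangles are genes with the AP-1 letters, circles genes with a GC box, squares genes with neither, and the row under the dotted line holds the 5 genes with no count. The AP-1 genes lie at low or zero level, all but Mmp7 at or below 45.6% GC. A gene with 2 windows is drawn at its higher GC content. Mmp7 therefore stands at 53.2%, where the window with its AP-1 letters had 38.0%. The GC box genes spread from 0.00239 CPM per kb (Adamts18) up to Timp3 and overlap the AP-1 genes in level.

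Of the 51 genes, 46 had a count in at least 1 library, and a few made up most of the summed level. Timp3, an inhibitor that stays bound to the matrix, stood highest at 99.3 ± 24.7 CPM per kb (SD over 26 mice), between 53.6 and 160.5 in single mice. The next gene, Adamtsl5, a fibrillin-binding ADAMTS-like protein, reached 32.0 ± 3.58 and never more than 38.3, so no mouse had Timp3 in the range of Adamtsl5. Timp2 (27.2 ± 2.83), the membrane-type gene Mmp15 (25.7 ± 3.02) and the gelatinase gene Mmp2 (21.0 ± 3.45) followed, and their ranges overlapped each other and Adamtsl5. Adamtsl4 (12.2), Adamts10 (9.55), Adamts1 (9.30), Timp4 (9.07) and Adamtsl2 (6.83) came after them. The 4 Timp genes made up 45.4% of the summed per-kb level of the 51 members in Ctrl males, 45.9% in cKO males, 49.1% in Ctrl females and 47.7% in cKO females. Mmp2 was 1 of 2 gelatinases, and the other, Mmp9, averaged 0.475 ± 0.192 CPM per kb over the 26 mice. Besides the 5 silent genes, 9 were below the filter: Mmp3 with at most 13 counts, Mmp27 with 10, Mmp24 with 5, Mmp25 with 4, Mmp8, Adamts16 and Adamts18 with 2, and Mmp21 and Adamts13, the protease of von Willebrand factor, with 1.

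**Figure D2:**
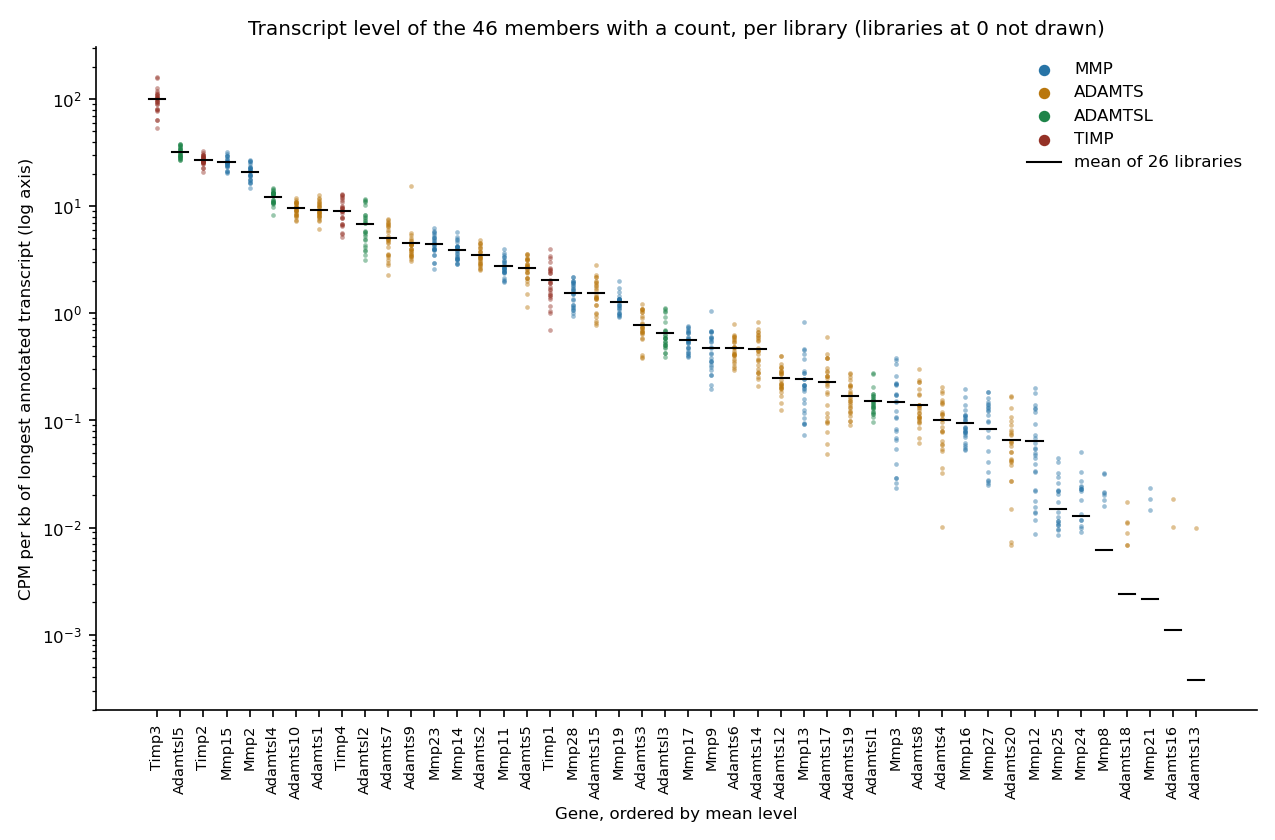
Level of the 46 genes with a count (y, CPM per kb of the longest annotated transcript, log axis), ordered by mean. Each point is 1 library, libraries at 0 are not drawn, bars are means of 26 libraries, and colours mark the 4 families. Timp3 leads at 99.3 CPM per kb, and the levels span more than 5 powers of 10.

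How closely mice of a group agreed differed between members. The coefficient of variation within a group had a median over the 4 groups of 8.79% for Timp2, 8.85% for Adamtsl5, 9.53% for Mmp15 and 10.3% for Adamts10. It was 23.2% for Timp3, 24.7% for Adamtsl2, 30.9% for Timp1 and 34.5% for Adamts7. The low genes Mmp12 (72.7%), Adamts20 (58.3%) and Adamts17 (54.8%) varied most of the 37.

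Loss of Ppp2r2a in males was compared first, with edgeR's quasi-likelihood test on a model of all 4 groups. Fold changes are on the log2 scale with their standard error (SE), Benjamini-Hochberg adjustment of p-values ran over all 15357 genes, and a gene counts as called at an adjusted p under 0.05. No member was called in males, where 0.443% of all genes were, and none had ranges of Ctrl and cKO males that did not overlap, where 1.28% of all genes did. DESeq2 called 3 (Adamtsl2, Adamts10 and Adamts2) and limma-voom 0. Before adjustment 7 of 37 members lay under 0.05, all of them higher in cKO males, where 13.2% of all genes lay under 0.05 and 6.11% were also higher. They were Adamts10, Adamtsl2, Adamts2, Adamts12, Timp2, Adamtsl4 and Timp1. Of the 37, 27 were higher in cKO males with a median log2 fold change of 0.12, and of all genes 50.3% were higher with a median of 0.00. The estimates ran from -0.37 (Adamts15) to 0.79 (Mmp12). In counts simulated for this male comparison, edgeR called 53% of 100 genes changed by 0.5 on the log2 scale and 14% of 50 changed by 0.25, among 15162. The changed genes were drawn at random from all tested genes, with independent noise, so these shares need not hold for the members.

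Adamts10 encodes a protease tied to fibrillin microfibrils. Its CPM (lowest, median and highest mouse) was 29.9, 33.7 and 38.1 in Ctrl males, 34.9, 40.5 and 47.5 in cKO males, 33.4, 36.6 and 44.8 in Ctrl females and 37.3, 44.1 and 49.6 in cKO females. The cKO mice of each sex were shifted up by a few CPM and the ranges overlapped in both sexes. In males the log2 fold change was 0.28 (edgeR adjusted p = 0.0926, SE 0.08), with 7 of 7 cKO males above the Ctrl mean. In females it was 0.18 (edgeR adjusted p = 0.941, SE 0.08), with 6 of 7 above.

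Averaged over both sexes, Adamts10 rose by 0.23 (edgeR adjusted p = 0.0359, SE 0.06). It was the only one of the 37 members called by edgeR there, where 1.33% of all genes were called. DESeq2 called Adamtsl2 as well. The call of Adamts10 did not hold once transcript length and GC content were corrected for, which gave 0.19 and an adjusted p of 0.106. It was also lost, with estimates of 0.21 to 0.23 and adjusted p between 0.0539 and 0.0732, when any of 11 single mice was left out: Ctrl males 1, 2 or 5, cKO males 1 or 3, Ctrl females 1, 3, 4 or 5, or cKO females 5 or 7. Before adjustment 7 members lay under 0.05 in the average over sexes, all higher in cKO, where 14.1% of all genes lay under 0.05 and 6.43% were also higher. Of the 37, 28 were higher with a median of 0.09, where 51.6% of all genes were. Beside Adamts10 these were Timp2 (0.16, SE 0.05, adjusted p = 0.113), Adamtsl2, Adamtsl5, Adamtsl4, Timp1 and Adamts2. In males the cardiomyocyte marker sum went from 57863 ± 3323 CPM in Ctrl to 53049 ± 3538 in cKO. In females it went from 60662 ± 4204 to 57414 ± 3626. The sum of the fibroblast markers Pdgfra, Tcf21, Dcn, Lamc3 and Col1a1 went from 662 ± 92.9 to 709 ± 64.2 CPM in males. In females that sum went from 576 ± 65.1 to 619 ± 60.6. Adamts10 thus moved against the first sum and with the second, and the part of either in its result was not tested.

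Adamtsl2 encodes a secreted protein that binds fibrillin and latent TGF-β binding proteins. Its CPM was 18.7, 23.0 and 29.4 in Ctrl males, 25.998, 41.1 and 48.9 in cKO males, 28.8, 44.5 and 69.2 in Ctrl females and 31.3, 49.8 and 67.3 in cKO females. Ctrl males were low and close together, 6 of 7 cKO males were above all of them, and the females of both genotypes were spread over the range of the cKO males and beyond. In males the log2 fold change was 0.75 (edgeR adjusted p = 0.0983, SE 0.21), with a 95% interval of 0.31 to 1.19. DESeq2 called it (0.75, adjusted p = 0.00881), as did edgeR on the 2 male groups alone (0.75, adjusted p = 0.0388). In females it was 0.08 (edgeR adjusted p = 0.997, SE 0.21).

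Adamts2 is the main procollagen N-proteinase, which trims the ends of newly made fibrillar procollagens. Its CPM was 20.3, 21.5 and 27.1 in Ctrl males, 23.7, 32.3 and 35.1 in cKO males, 18.7, 23.6 and 31.0 in Ctrl females and 18.5, 23.7 and 29.7 in cKO females. In this gene 5 cKO males lay above every Ctrl male and 2 lay inside their range, while the female groups covered the same levels. The log2 fold change was 0.38 in males (edgeR adjusted p = 0.131, SE 0.12) and 0.01 in females (SE 0.12), and DESeq2 gave 0.38 with an adjusted p of 0.0430 in males. The 2 other procollagen N-proteinases, Adamts3 (0.00, SE 0.22) and Adamts14 (0.14, SE 0.28), were close to 0 in males.

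Adamts12, which cuts cartilage oligomeric matrix protein, was scarce. Its CPM was 1.45, 1.78 and 2.69 in Ctrl males, 2.04, 2.62 and 3.43 in cKO males, 1.08, 2.15 and 2.68 in Ctrl females and 1.60, 1.82 and 2.33 in cKO females. The cKO males were the highest group and overlapped the Ctrl males. The log2 fold change was 0.49 in males (edgeR adjusted p = 0.225, SE 0.18) and -0.07 in females (SE 0.19). Adamtsl4, a fibrillin microfibril protein of the eye and other tissues, was at 33.7, 42.7 and 53.9 CPM in Ctrl males and 44.1, 45.8 and 56.7 in cKO males, a log2 fold change of 0.20 (edgeR adjusted p = 0.263, SE 0.08). It was at 44.6, 51.6 and 54.7 in Ctrl females and 46.5, 53.9 and 59.2 in cKO females.

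**Figure D3:**
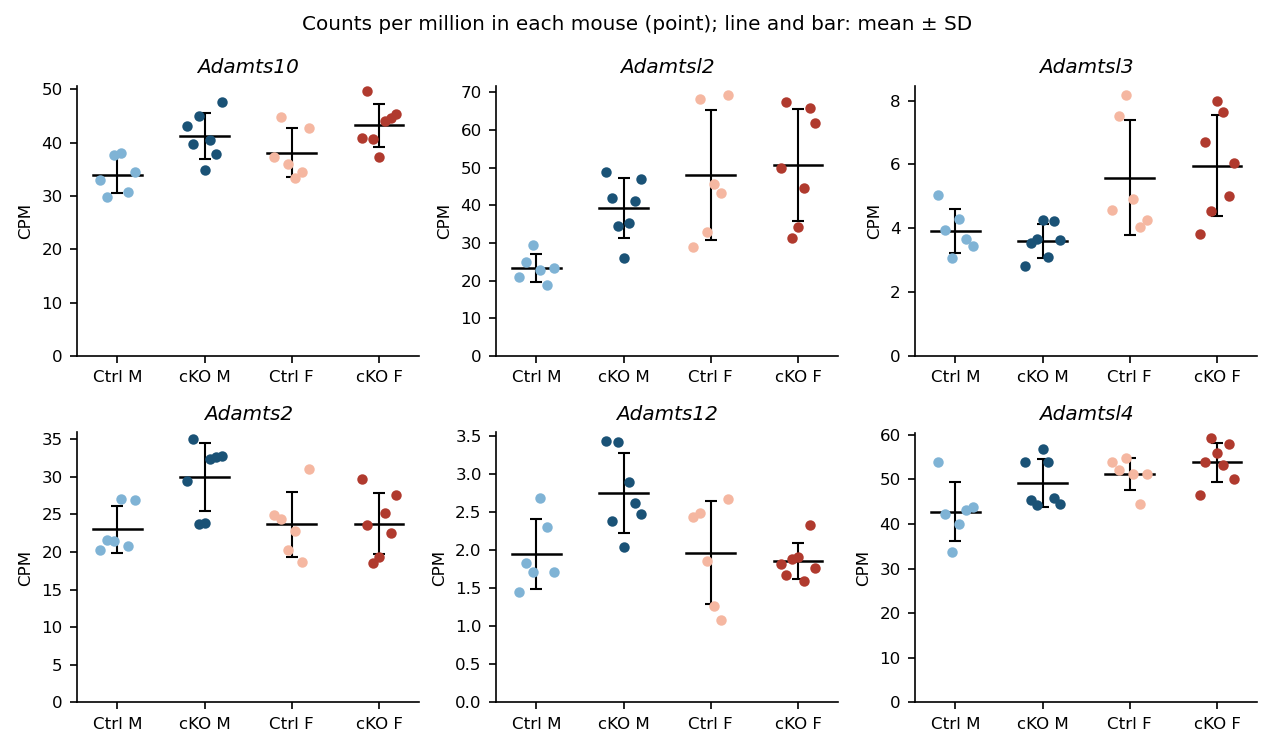
CPM of 6 members in each mouse (points), with mean and SD (line and bar), for Ctrl and cKO males and females. Adamts10 is shifted up in cKO mice of both sexes, Adamtsl2, Adamts2 and Adamts12 have higher means in cKO than in Ctrl males and similar means in the female groups, and Adamtsl3 has its higher values in females; edgeR on all 4 groups called none of these genotype differences within a sex, and DESeq2 called those of Adamts10, Adamtsl2 and Adamts2 in males.

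The 5 Adamtsl genes added up to 42.2 to 46.8 CPM per kb in Ctrl males and 47.9 to 57.7 in cKO males, which did not overlap. In females the sums were 47.5 to 59.6 in Ctrl and 48.3 to 63.2 in cKO and overlapped. The sums of the other 3 families overlapped between Ctrl and cKO males, at 54.5 to 71.5 and 60.6 to 72.7 for Mmp, 33.2 to 40.9 and 33.5 to 40.9 for Adamts, and 86.8 to 150.6 and 102.7 to 163.1 for Timp. The sum was looked at after the single genes, of which Adamtsl2 and Adamtsl4 had an unadjusted p under 0.05 in males (edgeR), and was not tested. Among all single genes tested, 1.28% had ranges that did not overlap between Ctrl and cKO males. Adamtsl5 makes up most of the level of the Adamtsl sum, at 110.9, 119.7 and 123.7 CPM in Ctrl males and 115.4, 130.0 and 146.3 in cKO males (log2 fold change 0.13, edgeR adjusted p = 0.451, SE 0.07). From Ctrl to cKO males its mean went from 29.0 to 31.7 CPM per kb, that of Adamtsl2 from 3.92 to 6.58 and that of Adamtsl4 from 10.6 to 12.2. The means of Adamtsl1 (0.135 to 0.134) and Adamtsl3 (0.540 to 0.498) were slightly lower in cKO males.

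Among the inhibitors, none of the 4 was called for genotype in males, in females or over both sexes. Timp2, which besides inhibiting MMPs helps Mmp14 to activate pro-Mmp2, was at 83.6, 94.6 and 99.6 CPM in Ctrl males and 93.1, 107.0 and 112.7 in cKO males. In females it was at 77.3, 97.3 and 110.7 in Ctrl and 91.7, 107.6 and 122.7 in cKO. The middle of both cKO groups was above that of the controls and the ranges overlapped. The log2 fold change was 0.18 (edgeR adjusted p = 0.254, SE 0.07) in males and 0.14 (SE 0.07, adjusted p = 0.948) in females.

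Timp1, the inhibitor known to respond to injury and inflammation, was at 0.899, 1.68 and 2.23 CPM in Ctrl males and 1.31, 2.68 and 3.53 in cKO males. In females it was at 0.622, 1.33 and 2.34 in Ctrl and 0.933, 1.70 and 2.31 in cKO. The cKO males held the highest values, with 6 of 7 above the Ctrl mean, and all groups overlapped. The log2 fold change was 0.59 (edgeR adjusted p = 0.299, SE 0.25) in males and 0.26 (SE 0.27, adjusted p = 0.982) in females.

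Timp3 was at 253.1, 420.3 and 512.4 CPM in Ctrl males, 299.0, 423.3 and 557.7 in cKO males, 423.0, 475.1 and 757.7 in Ctrl females and 377.0, 496.5 and 740.6 in cKO females. Its genotype estimates were 0.12 in males (95% interval -0.25 to 0.49) and -0.04 in females (-0.41 to 0.33), so changes of up to about those bounds were not resolved. Timp4, an inhibitor known for its expression in heart, was at 28.5, 49.3 and 71.9 CPM in Ctrl males, 31.0, 65.5 and 70.7 in cKO males, 37.2, 47.9 and 60.5 in Ctrl females and 30.0, 43.8 and 51.7 in cKO females. Its estimates were 0.24 (SE 0.20) in males and -0.14 (SE 0.20) in females, edgeR adjusted p 0.654 and 0.985.

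**Figure D4:**
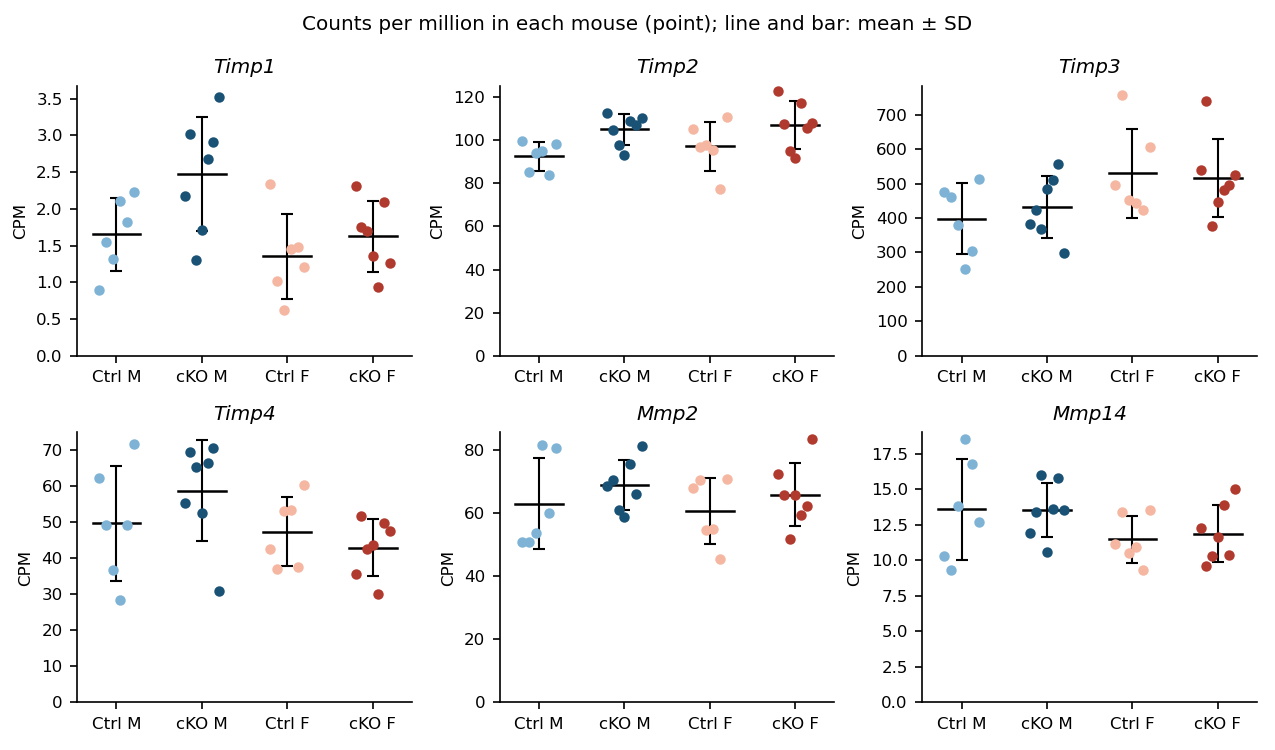
CPM of the 4 Timp genes, Mmp2 and Mmp14 in each mouse (points), with mean and SD (line and bar), by group. The groups overlap in all 6 genes, and the highest mouse is a cKO male for Timp1 and a Ctrl female for Timp3.

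No genotype difference was called among the proteases that act on collagen and gelatin. None of the 12 tested Mmp genes had an unadjusted p under 0.05 in either sex or over both. Mmp2 was at 50.7, 56.9 and 81.5 CPM in Ctrl males, 58.8, 68.5 and 81.2 in cKO males, 45.4, 61.3 and 70.8 in Ctrl females and 51.8, 65.7 and 83.6 in cKO females, with estimates of 0.13 (SE 0.13) and 0.12 (SE 0.13). Mmp14, the membrane-type protease that activates pro-Mmp2, gave -0.01 (SE 0.14) in males and 0.05 (SE 0.14) in females at 9.34 to 18.5 CPM. Adamts1, a versican-cutting protease, gave -0.10 (SE 0.13) in males and 0.19 (SE 0.13) in females at 29.8 to 61.8 CPM.

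In females no member was called, where 0.0326% of all genes were, and no ranges were apart, where 0.169% of all genes were. DESeq2 and limma-voom called 0 too. Adamts10 was the 1 member with an unadjusted p under 0.05, where 5.15% of all genes had one and 2.73% were also higher. Of the 37, 23 were higher in cKO females, with a median of 0.06, where 51.1% of all genes were higher. That count was 28 without Ctrl female 2 and 19 without Ctrl female 3. The estimates ran from -0.43 for Adamts9, which rests on 1 Ctrl mouse, to 0.35 for Adamts17. Without that mouse, Ctrl female 2, the Adamts9 estimate was 0.14 (adjusted p = 0.925). Ctrl female 2 also held the highest Timp3 value, and its mesothelial and epicardial markers summed to 25.5 CPM, where the other Ctrl females had 3.43 to 5.29. The part of these markers in the Adamts9 and Timp3 values was not tested.

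The contrast of the genotype effects between females and males, female minus male, called 0 of 37 members and 0% of all genes with edgeR. DESeq2 and limma-voom called 0 members too. Before adjustment 3 members lay under 0.05, all lower in females, where 3.96% of all genes lay under 0.05 and 1.91% were also lower. They were Adamtsl2 (-0.67, SE 0.30), Adamts2 (-0.37, SE 0.17) and Adamts12 (-0.56, SE 0.27), each with an edgeR adjusted p of 0.999. The estimate was below 0 for 25 of 37 members, with a median of -0.10, where 51.6% of all genes were above 0 with a median of 0.01. Without Ctrl female 2 it was below 0 for 21 members, with a median of -0.03. A sex difference in the response of these 3 genes was thus not shown.

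**Figure D5:**
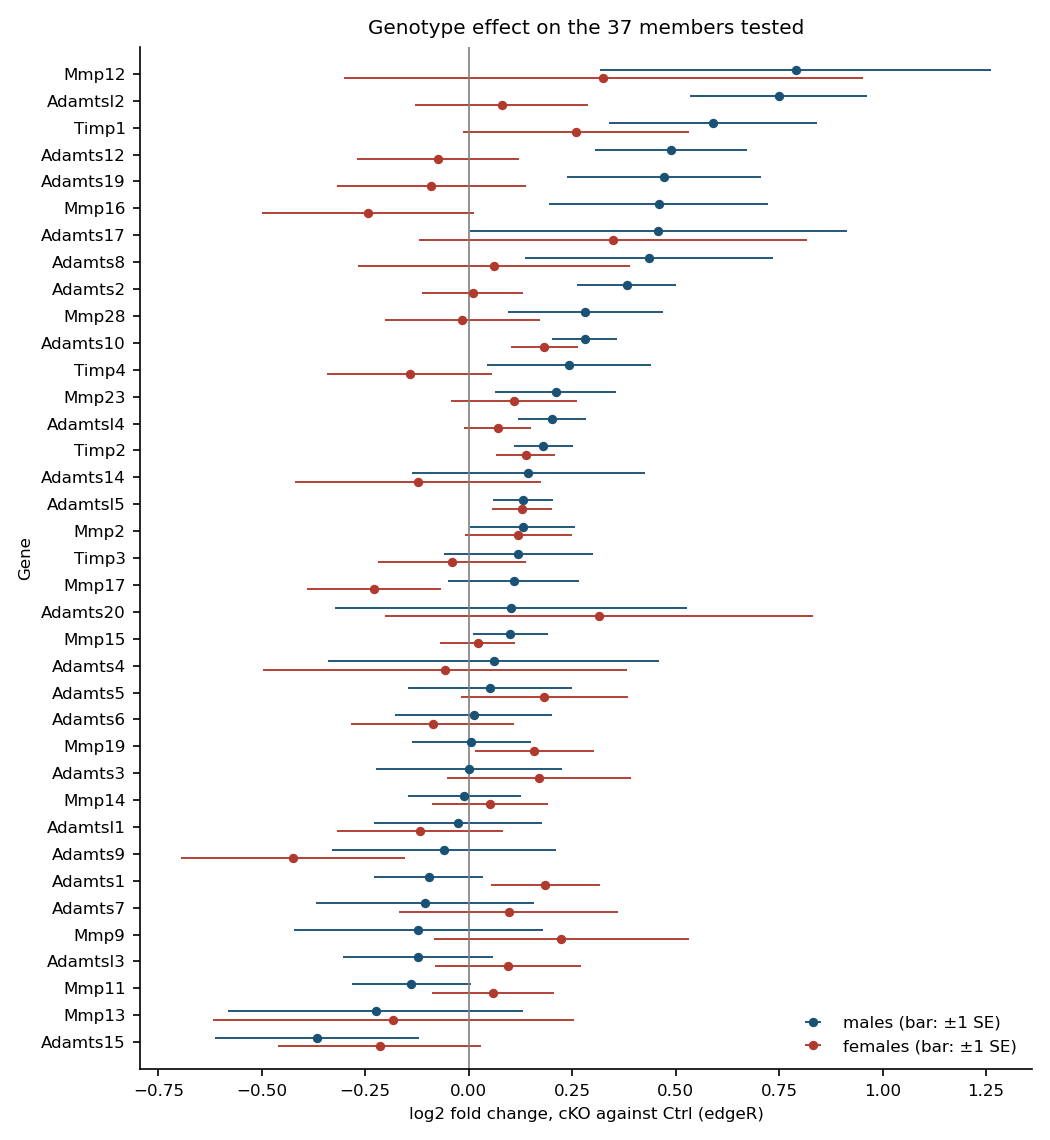
Log2 fold change of cKO against Ctrl (x, edgeR) for the 37 members tested, ordered by the male estimate, in males (blue) and females (red). Bars are ±1 SE, and the line marks 0. The male points are above 0 for 27 genes and the female points for 23, and edgeR on all 4 groups called none of them within a sex.

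Sex was compared within each genotype. Among controls, Adamtsl2 was the 1 member called of 37, where 0.638% of all genes were called. It was higher in Ctrl females by 1.04 (edgeR adjusted p = 0.0246, SE 0.22), with 6 of 6 above the male mean, although 28.8 CPM in the lowest female lay under 29.4 in the highest male. Ctrl female 2, the mouse with the high mesothelial markers, was at 68.2 CPM. The call was lost when Ctrl male 2, 4 or 5 or Ctrl female 2 or 6 was left out, with estimates of 0.91 to 1.06 and adjusted p between 0.0513 and 0.0705. It was also lost with limma-voom (0.91, adjusted p = 0.0629), with no filter (1.03, adjusted p = 0.0519) and with the 2 control groups alone (1.04, adjusted p = 0.0714). The same holds without Ctrl males 3 and 6, whose Ppp2r2a was lowest among Ctrl males (1.13, adjusted p = 0.0764). Before adjustment 7 of 37 members lay under 0.05, 6 of them higher and 1 lower in females, where 12.1% of all genes did, 6.2% higher and 5.87% lower. No member had ranges of Ctrl females and Ctrl males that did not overlap, where 1.02% of all genes did. The higher ones were Adamtsl2, Adamtsl4 (0.26), Mmp16 (0.79), Adamts19 (0.70), Adamtsl3 (0.51) and Timp3 (0.41), and the lower one was Mmp13 (-0.98). Without Ctrl male 1, Adamtsl4 was called as well (0.34, adjusted p = 0.0345). Mmp13, a collagenase, had 5 to 44 counts in Ctrl males and 5 to 19 in Ctrl females.

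Among knockouts, Adamtsl3 was the 1 member called of 37, where 2.7% of all genes were, and none had ranges apart, where 1.09% of all genes did. Adamtsl3, also known as punctin-2, was at 2.82, 3.64 and 4.27 CPM in cKO males and 3.83, 6.04 and 7.98 in cKO females, and at 3.07, 3.81 and 5.04 in Ctrl males and 4.03, 4.76 and 8.19 in Ctrl females. In cKO mice 6 of 7 females lay above all males. The log2 difference was 0.73 (edgeR adjusted p = 0.0231, SE 0.17), with 7 of 7 females above the male mean. The call was lost without cKO male 1 (0.67, adjusted p = 0.0560) or cKO female 4 (0.64, adjusted p = 0.0637). In controls it was 0.51 (SE 0.18, adjusted p = 0.225), and whether the sex difference of Adamtsl3 depends on genotype is the same interaction, which was not called.

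Before adjustment 9 members lay under 0.05 between the sexes in knockouts, where 17.3% of all genes did, 9.11% higher and 8.15% lower. Of the 9, 2 were higher in females (Adamtsl3 and Mmp19) and 7 were lower. The lower ones were Adamts12 (-0.56, adjusted p = 0.0878), Adamts2 (-0.33, adjusted p = 0.119), Mmp12 (-1.25), Timp1 (-0.61), Mmp13 (-0.94), Timp4 (-0.45) and Mmp23 (-0.32). Adamts12 was called with the 2 knockout groups alone (-0.57, adjusted p = 0.0473). The fibroblast markers Pdgfra, Tcf21, Dcn, Lamc3 and Col1a1 summed to 662 ± 92.9 CPM in Ctrl males, 709 ± 64.2 in cKO males, 576 ± 65.1 in Ctrl females and 619 ± 60.6 in cKO females. Of the 5, Lamc3 (-2.14, adjusted p = 0.00293), Col1a1 (-0.40) and Dcn (-0.18) had lower estimates in cKO females than in cKO males, and Pdgfra and Tcf21 (both 0.08) higher ones. Their part in these differences was not tested.

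Other genes of the same pathways were read from 4 lists of 91 genes (activators, inhibitors and clearance receptors; ADAM sheddases; matrix substrates; TGF-β and AP-1 inducers), of which 74 were tested. In males 2 were called, where 0.443% of all genes were: Hspg2, the basement membrane proteoglycan perlecan (0.30, edgeR adjusted p = 0.0272, SE 0.06), and the fibronectin gene Fn1 (0.53, SE 0.12, adjusted p = 0.0397), both higher in cKO. This count moved between 0 and 11 over the alternatives, with 11 from DESeq2 and 7 from limma-voom. Leaving out single mice ended the call of Fn1 in 8 settings and that of Hspg2 in 6. With the length and GC correction 0 were called, Hspg2 at 0.16 (adjusted p = 0.239) and Fn1 at 0.44 (adjusted p = 0.108), and 0 were called without Ctrl males 3 and 6. In females and in the difference of the sexes 0 were called by edgeR, DESeq2 or limma-voom, with 7 and 10 of 74 at an unadjusted p under 0.05, where 5.15% and 3.96% of all genes were. Over both sexes 7 were higher and 1 lower, where 0.469% of all genes were called higher and 0.866% lower. Comp (0.98), Fn1 (0.35), Pcolce2 (0.32), Bgn (0.30), the clearance receptor gene Lrp1 (0.30), Hspg2 (0.22) and the procollagen C-proteinase gene Bmp1 (0.16) rose, and Bsg, which encodes an inducer of MMPs, fell by 0.20. Lrp1, which takes up MMPs and TIMPs, went from 150.05 ± 14.9 to 190.9 ± 21.4 CPM in males and from 160.0 ± 14.1 to 191.0 ± 23.3 in females. With the length and GC correction the count was 4, and Lrp1 (0.20, adjusted p = 0.0608) and Hspg2 (0.11, adjusted p = 0.207) were not among them. Leaving out any single mouse did not end the calls of Pcolce2, Bsg, Comp, Lrp1 and Hspg2. Bmp1 lost its call in 6 of these settings, Fn1 in 10 and Bgn in 19.

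Among the 28 matrix substrates tested, 27 were higher in cKO males, where 50.3% of all genes were. Their median was 0.31, against 0.00 over all genes. In cKO females 20 were higher, with a median of 0.05, where 51.1% of all genes were higher. For the 37 members the medians were 0.12 in males and 0.06 in females. The substrate list was chosen with earlier results of these data known, so these counts are not a test. Comp, a substrate of Adamts7 and Adamts12, was at 0.931 to 3.61 CPM in Ctrl males and 3.28 to 7.05 in cKO males. Adamts7 itself gave -0.10 (SE 0.26) in males.

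Mmp14, Timp2 and Mmp2, which act together in the activation of pro-Mmp2, were compared across the 26 mice as deviations from group means of log2 CPM, 3 pairs in all. Mmp14 and Mmp2 gave r = 0.59 (permutation p = 0.00731, adjusted over 3 pairs 0.0110; Spearman's rho 0.55, permutation p = 0.0112). Without the 2 farthest mice r was 0.47, and within groups it was 0.91 in Ctrl females, 0.64 in Ctrl males, 0.57 in cKO females and 0.12 in cKO males. Mmp2 and Timp2 gave r = 0.55 (permutation p = 0.00581, adjusted 0.0110; rho 0.50, permutation p = 0.0151), and 0.56 without the 2 farthest mice. Within groups this was 0.86 in Ctrl females, 0.31 in Ctrl males, 0.37 in cKO females and 0.80 in cKO males. Mmp14 and Timp2 gave r = 0.29 (permutation p = 0.145; rho 0.29, permutation p = 0.164). The values of a mouse share 1 library, its depth and the makeup of 1 piece of tissue.

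Some members share sequence with a neighbour, and the sources used here do not say whether strand was used in counting. Timp1, Timp3 and Timp4 lie within the synapsin genes Syn1, Syn3 and Syn2 on the opposite strand. Exons of Syn3 cover 21.3% of the Timp3 exons in GENCODE M21, and Syn3 averaged 0.268 CPM. Tmem198b, at 9.77 CPM, overlaps 22.3% of the Mmp19 exons, and Chchd10, at 762 CPM, 5.6% of those of Mmp11. The levels of Mmp19 and Mmp11 are therefore uncertain.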

How the data were processed

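Left ventricle libraries of 26 mice were deposited by the authors as 1 table of raw gene counts with Ensembl IDs and gene names. The submitters' processing notes name FastQC 0.74, cutadapt 4.6, STAR 2.7.11a, HTSeq and GRCm39. The labels give about 20 mg of tissue, 500 ng of RNA, RNA integrity of 7.7 or more and stranded poly-A libraries. Strand use in counting is not given in the sources used here.

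From the counts, edgeR 4.0.16 in R 4.3.3 was run with TMM scaling, filterByExpr (minimum count 10), robust quasi-likelihood and 4 group means. The 6 contrasts were genotype in each sex, their difference and their mean, and sex in each genotype, each adjusted by Benjamini-Hochberg over 15357 genes. DESeq2 1.42.0, limma-voom 3.58.1, sva 3.50.0 and other settings were alternatives. In simulated counts edgeR called 88% of 50 genes changed by 1 on the log2 scale among 15162, and 6.31% of its calls were false. Transcript lengths and overlaps are from GENCODE M21, matched by gene ID, and promoter windows from RefSeq (GRCm38.p6), matched by symbol. No coordinate was moved between builds. Outside the report's promoter windows no coordinates are given.

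Groups come from the titles. The members and gene lists were chosen with earlier results of these data known. Genes named with values are the 4 Timp genes, Mmp2, Mmp14, Adamts1, the 3 members of highest level, members called in any contrast and those with an unadjusted p under 0.05 for genotype. Members named for sex differences, level or low counts were picked after their values were seen. The 72 pairs of libraries within groups differed by more than sampling noise. Same-numbered Ctrl and cKO mice did not deviate together throughout (mean correlation -0.03 in males and 0.12 in females). For mice with different numbers the mean was 0.004 in males and -0.02 in females. In females 3 of 6 same-numbered pairs were over 0.1, the highest at 0.40. The labels do not settle whether the numbers are pairs, so a replicate block was run as an alternative only.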

Additional observations from a re-analysis of the deposited data

Results flagged for a closer look

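Within groups, 8 values of tested members stood apart from the rest of their group by Dixon's 95% criterion, out of 148 groups of values examined. Chance would flag about 1 in 20, or 7.4. All 8 were in females. Ctrl female 2 held the highest Adamts9 value, 122.9 CPM, where the other Ctrl females lay between 27.5 and 36.2, and the lowest Adamts5 value, 12.4 CPM, where the others lay between 25.7 and 29.7. Both genes encode proteases that cut versican and related proteoglycans. In the same mouse the mesothelial and epicardial markers Wt1, Upk3b and Msln summed to 25.5 CPM, against 3.43 to 5.29 in the other Ctrl females and at most 7.67 in the other groups. The part of this in the Adamts9 and Adamts5 values was not tested.

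Among cKO females, mouse 1 had the highest Adamts8 (0.836 CPM, next 0.504) and the lowest Adamtsl5 (113.6 CPM, next 140.0). Mouse 2 had the lowest Adamts3 (1.54 CPM, next 3.20), mouse 5 the highest Adamtsl1 (2.18 CPM, next 1.39) and mouse 6 the highest Mmp12 (0.619 CPM, next 0.222). Ctrl female 5 had the lowest Adamtsl4 (44.6 CPM, next 51.1).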

How the results depend on the processing

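Of 2525 recomputed fold changes of named genes, leaving out those for which DESeq2 gave no adjusted p, 2386 kept their direction and their side of the threshold. Most of the 66 results behind them were not called in the main fit, and staying uncalled counts as kept. This share therefore does not measure how stable the calls are. Of the rest, 101 values lost a call of the main fit, 7 gained a call and 31 changed sign. Members called in males numbered 3 with DESeq2 (Adamtsl2, Adamts10 and Adamts2) and 1 with the 2 male groups alone, against 0. Over both sexes DESeq2 called 2 members, and 0 were called with a length and GC correction, with a replicate block, and with both together, which gave Adamts10 estimates of 0.19, 0.21 and 0.16 (adjusted p 0.106, 0.0830 and 0.190). The replicate block uses the replicate numbers, and the labels do not say whether mice sharing a number are related. Over both sexes 2 pathway genes were called with length, GC and block together, where Comp gave 0.93 (adjusted p 0.0577). For sex in controls 0 members were called with limma-voom, with no filter, with the 2 groups alone, without Ctrl males 3 and 6, and without the females numbered 2 (Adamtsl2 0.91, adjusted p 0.0541), the last chosen after seeing the data. For sex in knockouts 0 were called at a mean of at least 5 CPM, where Adamtsl3 was not tested, and 2 with the 2 groups alone. Leaving out 1 mouse gave 0 to 1 members over both sexes, 0 to 2 for sex in controls and 0 to 1 for sex in knockouts. In males, in females and in their difference it gave 0. The 2 groups alone give no value for the difference of the sexes or their mean. The cause of these changes was not tested.

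The estimates that changed sign were called in no setting. Mmp14 in males (-0.01) gave 0.025 with limma-voom, 0.000146 with 1 surrogate variable, and -0.10 to 0.10 when single mice were left out. In females, Mmp14 (0.05) gave -0.00296 with length, GC and block and -0.014 to 0.10 without single mice. Timp3 (-0.04) gave 0.00672 with the block and -0.15 to 0.088. Adamtsl2 (0.08) gave -0.00576 with length, GC and block and -0.034 to 0.21. Adamts2 (0.01) gave -0.00644 with limma-voom, -0.018 with the block, -0.035 with length and GC, -0.061 with both, and -0.052 to 0.10. Adamts12 (-0.07) gave 0.086 with limma-voom, 0.028 without the females numbered 2, and -0.20 to 0.031. Adamts9 (-0.43) gave 0.085 without the females numbered 2 and -0.54 to 0.14 without single mice, 0.14 being without Ctrl female 2. Depth limits the low genes: 14 members could not be tested.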
